A study of Mus musculus with 7 samples.

Results

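Arg1-positive macrophages of the inflamed central nervous system were cells with transcripts of Lyz2, the lysozyme gene of myeloid cells, and of Arg1, the gene of arginase-1. A cell was taken when it held at least 50 Lyz2 UMIs (unique molecular identifiers, 1 per captured transcript) per 10000 UMIs, at least 3 Arg1 UMIs, at most 1 UMI of the T cell receptor genes Cd3d, Cd3e and Cd3g together, and under 1% of its UMIs from the neutrophil genes S100a8 and S100a9. These were 786 of the 2640 Lyz2 cells that met the other limits, of 7076 barcodes past the quality filter in 3 libraries and of 13922 barcodes in the series. They were set beside the 1528 Lyz2 cells of the same libraries with no Arg1 UMI, called Arg1-zero below, and the 326 cells with 1 or 2 Arg1 UMIs were kept apart.

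Arginase-1 splits L-arginine into ornithine and urea, and in macrophages it competes for arginine with the inducible nitric oxide synthase, the product of Nos2. In mice, Arg1 is a classical marker of alternative activation by IL-4 and IL-13, and it is also induced by hypoxia, lactate, lipid loading and the uptake of dying cells. In experimental autoimmune encephalomyelitis (EAE), in which immunity to a myelin peptide inflames the brain and spinal cord, blood monocytes enter the central nervous system and become macrophages of differing states.

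All mice were on the B6 background and had been immunized with the peptide MOG35-55. The tested mice were LAG3 deficient (labelled Lag3KO, genotype Lag3Floxed), and the control mice were Lag3wt (labelled WT); LAG3 is an inhibitory receptor of activated T cells. The labels give 5 mice per group of matched age and sex, with cells taken at peak disease from mice of matching scores and enriched on beads for CD45, the pan-leukocyte surface protein, or for CD4. The sources used here name neither the Cre line nor the deleted exons nor the mice behind each library. P-values between classes measure how the class difference varies over the libraries. Those between genotypes measure the spread between libraries. Either spread may be technical.

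The cells came from 3 CD45 libraries: Lag3KO_CD45 (n = 1) and WT_CD45 (n = 2). They held 16050069 to 18940186 UMIs in 2239 to 2517 barcodes, with medians of 5683 to 6407 UMIs per barcode, and pairs of these libraries shared 7 to 11 barcode sequences, 1 of them Arg1-positive in both. Lag3 itself (GRCm38 chr6:124904361-124911705, minus strand) had 2 UMIs in Lag3KO_CD45 1 and 304 in WT_CD45 1, but 4 in the library labelled WT_CD45 2, which goes against its label. Directions between genotypes rest on that label, and the log2 ratios of levels of the genes named by the genotype rule are also given without this library. In lists of 3 values per class below, the libraries stand in the order Lag3KO_CD45 1, WT_CD45 1 and the library labelled WT_CD45 2.

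**Figure D1:**
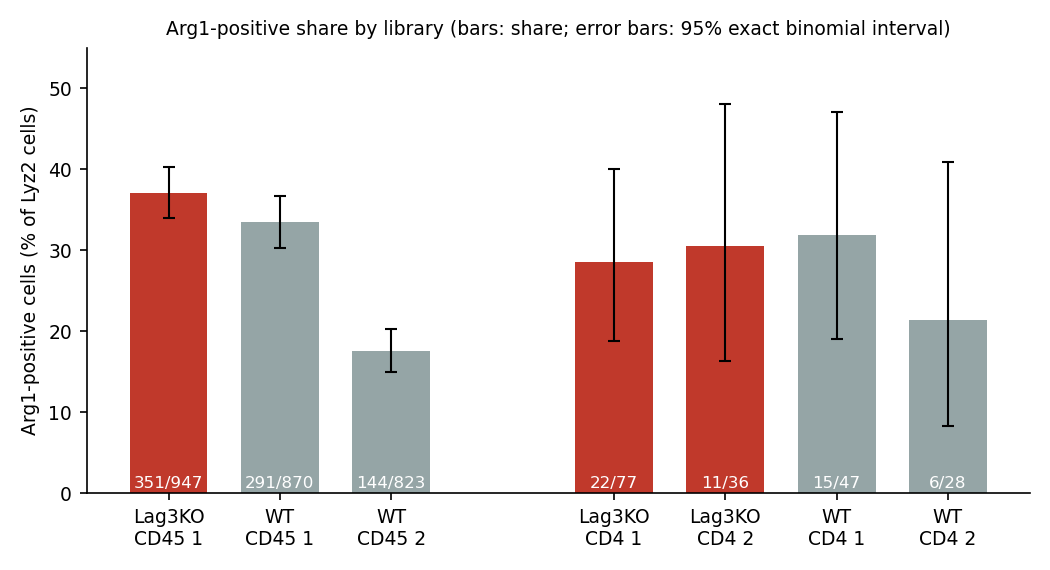
Percent of Lyz2 cells that were Arg1-positive in each library (bars), with exact Clopper-Pearson 95% intervals that cover counting error only. The library labelled WT_CD45 2, at 17.5%, lies below the intervals of Lag3KO_CD45 1 (37.1%) and WT_CD45 1 (33.4%), and the 4 CD4 libraries have wide intervals because they hold 28 to 77 Lyz2 cells each.

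The Arg1-positive share of Lyz2 cells was similar in Lag3KO_CD45 1 and WT_CD45 1 and lower in the library labelled WT_CD45 2. It was 37.1% in Lag3KO_CD45 1 (351 of 947 cells, 95% Clopper-Pearson interval 34.0 to 40.2), 33.4% in WT_CD45 1 (291 of 870, 30.3 to 36.7) and 17.5% in the library labelled WT_CD45 2 (144 of 823, 15 to 20.3). The intervals cover counting error only. Against the WT mean of 25.5% ± 11.3 (SD, n = 2), the Lag3KO library stood 11.6 percentage points higher, with a two-sided exact permutation p = 0.667 where 3 libraries allow no p under 0.333. Without the library labelled WT_CD45 2 the difference was 3.62 points, and without WT_CD45 1 it was 19.6 points. In the CD4 libraries, which the choice of the cells did not use, the share was 28.6% (22 of 77) and 30.6% (11 of 36) in Lag3KO_CD4 and 31.9% (15 of 47) and 21.4% (6 of 28) in WT_CD4.

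The 3 genes that mark these cells are given as a description, since the cells were chosen by Arg1 and Lyz2 and Fth1 was named as their marker from these data. Arg1 (chr10:24915221-24927484, minus strand) stood at 2272, 2000 and 1478 CPM (UMIs of the gene per 1000000 UMIs of the class in a library) in Arg1-positive cells, with medians of 12, 12 and 8 UMIs per cell and at most 99 UMIs. These cells held 57.4%, 59.6% and 55.3% of all Arg1 UMIs of their libraries. Lyz2 stood at 26594, 25863 and 33494 CPM in Arg1-positive cells, against 26706, 22461 and 22169 CPM in Arg1-zero cells, so its level overlapped between the classes. Fth1, the heavy chain of the iron store ferritin (chr19:9980598-9985098, plus strand), stood at 30074, 29356 and 27111 CPM in Arg1-positive cells, against 14593, 15779 and 15444 CPM in Arg1-zero cells. Every Arg1-positive value of Fth1 lay above every Arg1-zero value.

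The cells at the Arg1 threshold lay between the classes. Cells with exactly 3 Arg1 UMIs numbered 22, 23 and 25 and had 21503, 20830 and 21814 CPM of Fth1, and those with exactly 2 numbered 42, 43 and 40 and had 24057, 22392 and 18124 CPM. Among T cells (at least 3 UMIs of the Cd3 genes and Lyz2 under 10 per 10000), which should lack Arg1, a UMI of Arg1 was found in 5.87%, 5.88% and 1.09% of cells, and at least 3 UMIs in 0.765%, 0.619% and 0.218%. Median depth was 4038, 3798 and 3560 UMIs in T cells. Arg1-positive cells were deeper than Arg1-zero cells, with medians of 6606, 7647 and 6651 UMIs, against 4877, 5534.5 and 5397 UMIs, so levels are given in CPM and shares of cells with a UMI at 4000 UMIs per cell.

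Macrophage markers other than the 3 above were compared between the classes. Both classes passed the same Lyz2 limit, so a difference between them does not settle the macrophage label. Of 14 macrophage markers besides Lyz2, 11 were higher in Arg1-positive cells and 0 lower in edgeR's quasi-likelihood test with the library as a block (adjusted p under 0.05 over all 9295 genes tested), with a median log2 difference of 0.41 against 0.01 over all tested genes. Among them were Mertk, an efferocytosis receptor (1.24 ± 0.19, SE), Ms4a7, a membrane protein of mature macrophages (0.83 ± 0.08), and Cd68, a lysosomal glycoprotein (0.50 ± 0.05). Of the 14 markers, 12 had positive and 2 had negative differences. The summed level of all 15 macrophage markers was 43469 to 51086 CPM in Arg1-positive cells and 36441 to 42316 CPM in Arg1-zero cells.

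Markers of other cells moved in several directions, and their part in the results was not tested. Summed levels in Arg1-positive and Arg1-zero cells ranged from 115 to 149 and from 102 to 133 CPM for 14 T cell markers, from 65.2 to 83.9 and from 118 to 168 CPM for 9 B cell markers, and from 26.1 to 81.7 and from 67.9 to 86.0 CPM for 9 NK cell markers. For 11 neutrophil markers they ranged from 235 to 531 and from 240 to 465 CPM, and for 13 conventional dendritic cell markers from 394 to 436 and from 443 to 635 CPM. For 9 plasmacytoid dendritic cell markers they ranged from 606 to 697 and from 622 to 681 CPM, for 12 myelin and neural genes from 56.9 to 66.7 and from 66.8 to 74.2 CPM, and for 9 red cell and platelet markers from 14.9 to 25.2 and from 7.22 to 13 CPM. Hba-a2, Hbb-bt, Alas2, Ppbp, Mog and Mal were at 0 in both classes.

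The 14 microglia markers summed to 1441 to 1884 CPM in Arg1-positive cells and 1064 to 1371 CPM in Arg1-zero cells, without overlap. Of 13 tested, 4 were higher (Trem2, Olfml3 and Tmem119 among them) and 1 lower (Selplg). P2ry12, a purinergic receptor that defines microglia, had a UMI in 5.54%, 5.57% and 7.19% of Arg1-positive cells and 5.74%, 4.92% and 7.55% of Arg1-zero cells at 4000 UMIs, against 11.2%, 8.50% and 5.56% of T cells of the same libraries (10.3%, 10.3% and 8.33% of Arg1-positive cells at full depth). The P2ry12 shares of both classes lay below that of T cells, which should lack the gene, in Lag3KO_CD45 1 and WT_CD45 1 and above it in the library labelled WT_CD45 2. Tmem119, a further microglia marker, had a UMI in 16.6%, 15.3% and 12.9% of Arg1-positive cells and 9.29%, 7.25% and 6.94% of Arg1-zero cells, against 14.7%, 12.4% and 7.78% of T cells (23.4%, 25.8% and 20.1% of Arg1-positive cells at full depth). Without cells holding a UMI of any of 8 microglia or dendritic cell markers, 1220 genes were called.

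Between Arg1-positive and Arg1-zero cells, 17.4% of 9295 tested genes differed, 704 higher (7.57%) and 909 lower (9.78%) in Arg1-positive cells. Many genes of lipid handling, lysosomes, glycolysis, the hypoxia response, complement and matrix repair were higher. Many genes of the type I interferon response and of monocytes were lower, as were those of the cell cycle, in a number that changed with the setting. The values of all 3 Arg1-positive sums lay above all 3 Arg1-zero sums for 1035 genes (11.1%) and below them for 1267 (13.6%). DESeq2 called 542 genes (5.83%), 230 higher (2.47%) and 312 lower (3.36%), all of them among the 1613 of edgeR. With the rule applied to cells thinned to 4000 UMIs, 997 genes were called, 907 of them shared.

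**Figure D2:**
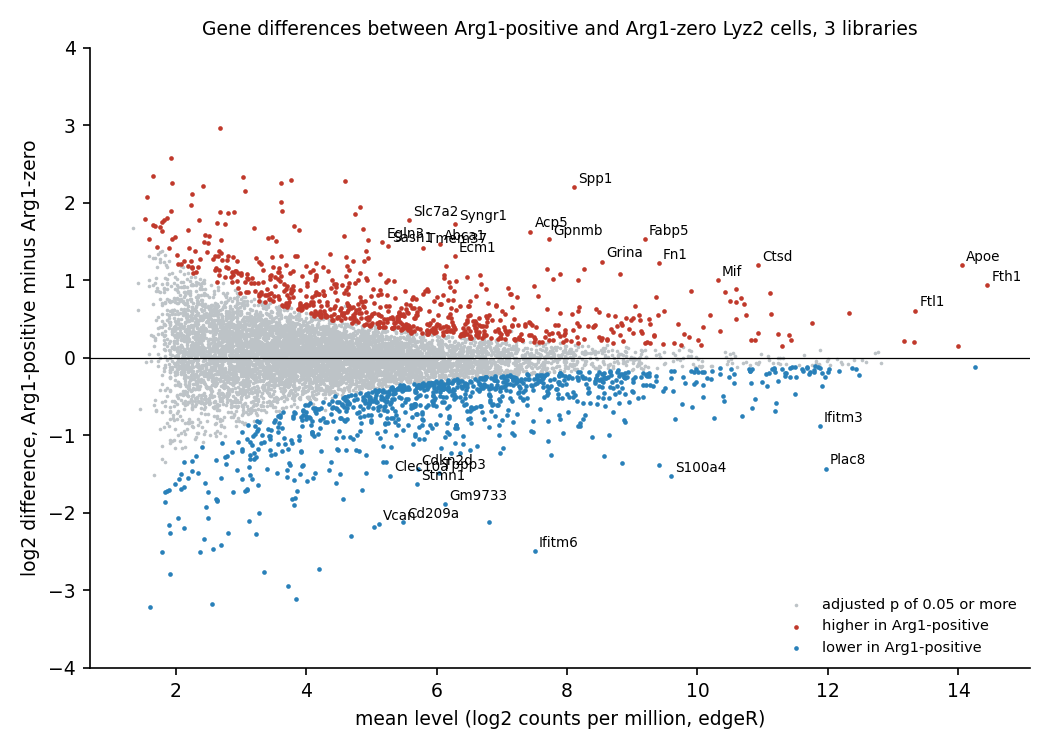
Log2 difference (Arg1-positive minus Arg1-zero, vertical axis) of each tested gene against its mean level (log2 CPM, horizontal axis), with genes called by edgeR in red (higher) and blue (lower). Among the named genes Spp1 stands highest at 2.20 and Ifitm6 lowest at -2.50, and 5 genes lie outside the plotted range.

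Of the 15 named genes with the largest positive differences, Spp1 stood highest. Spp1, the secreted matrix protein osteopontin (chr5:104435118-104441050), stood at 343, 563 and 500 CPM in Arg1-positive cells, against 46.7, 98.2 and 188 CPM in Arg1-zero cells. Its log2 difference was 2.20 ± 0.13 (SE, edgeR adjusted p = 2.25e-13), the groups did not overlap, and all 3 libraries had the same sign. Spp1 was concentrated: at 4000 UMIs, 25.1%, 28.9% and 26.6% of Arg1-positive cells and 5.74%, 10.6% and 14.7% of Arg1-zero cells had a UMI, against 5.08%, 6.54% and 10.6% of T cells. At full depth 30.8%, 39.2% and 31.3% of Arg1-positive cells had one, and the top 10% of cells held 86.6%, 86.6% and 85.3% of its UMIs. Its highest cell alone held 23.1%, 28.1% and 22.8% of the UMIs.

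Fn1, fibronectin, was spread over nearly all the cells. It stood at 993, 919 and 961 CPM in Arg1-positive cells, against 443, 418 and 383 CPM in Arg1-zero cells (1.23 ± 0.05, edgeR adjusted p = 2.42e-16), with a UMI in 88.3%, 86.1% and 89.2% of Arg1-positive cells at 4000 UMIs (93.4%, 92.1% and 91.7% at full depth), against 4.06%, 7.84% and 5.56% of T cells. The groups were well apart and the 3 libraries nearly alike within each class. Ecm1, an extracellular matrix protein, stood at 104, 131 and 114 CPM in Arg1-positive cells, against 53.9, 51.3 and 35.5 CPM (1.31 ± 0.11).

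Slc7a2, which encodes the cationic amino acid transporter CAT-2 that brings arginine into macrophages, was second among the named genes. It stood at 83.6, 72.3 and 78.3 CPM in Arg1-positive cells, against 17.8, 24.2 and 28.2 CPM in Arg1-zero cells, with no overlap (1.77 ± 0.13, edgeR adjusted p = 2.06e-11). Of the other named genes, Acp5, a lysosomal acid phosphatase, differed by 1.63 ± 0.09, Syngr1, a vesicle membrane protein, by 1.73 ± 0.10, and Grina, a membrane protein of the TMBIM family, by 1.24 ± 0.06. Sash1 (1.44 ± 0.13) and Tmem37 (1.42 ± 0.11) completed the 15 with the lipid, hypoxia and lysosome genes described below.

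Arginine and polyamine genes did not move as a group. Of 18 tested members besides Arg1, 3 were higher and 4 lower, with a median of -0.05 against 0.01 over all genes. Higher with Slc7a2 were Ass1, argininosuccinate synthase, which helps rebuild arginine from citrulline (0.41 ± 0.06), and Gatm, which uses arginine for creatine synthesis (227, 214 and 301 CPM against 142, 118 and 129 CPM, 0.93 ± 0.08). Lower were Sat1 (-0.44 ± 0.05) and Smox (-0.78 ± 0.11) of polyamine breakdown, Oaz1, the inhibitor of ornithine decarboxylase (-0.14 ± 0.05), and Aldh18a1 of proline and ornithine synthesis (-1.10 ± 0.34). Odc1, ornithine decarboxylase, which acts next on the ornithine that arginase makes, stood at 39.4, 39.2 and 29.8 CPM in Arg1-positive cells and 37.8, 37.2 and 29.9 CPM in Arg1-zero cells (0.07 ± 0.13, edgeR adjusted p = 0.803).

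Nos2 was not split from Arg1 by cell. At 4000 UMIs, a Nos2 UMI was found in 7.49%, 7.32% and 6.47% of Arg1-positive cells and in 3.01%, 5.44% and 2.04% of Arg1-zero cells, against 1.52%, 1.96% and 0.556% of T cells. At full depth the shares were 12.5%, 14.4% and 7.64% of Arg1-positive cells and 3.06%, 7.27% and 2.74% of Arg1-zero cells. The share was higher in Arg1-positive cells within each library, but by level the groups overlapped (28.1, 37.6 and 23.3 CPM against 9.99, 41.9 and 5.07 CPM) and the difference did not pass the test (0.67 ± 0.24, edgeR adjusted p = 0.0592).

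Genes of alternative activation other than Arg1 were mostly not higher. Of 18 tested, 3 were higher and 3 lower, and the median was -0.27. Retnla, a secreted protein induced by IL-4, had 0 UMIs in both classes, 0 of 307, 287 and 139 Arg1-positive cells at 4000 UMIs, which allows shares of cells with a UMI at this depth of up to 0.977%, 1.05% and 2.16% (3 cells of the total). Chil3, a chitinase-like protein of alternatively activated macrophages and monocytes, stood at 2973, 2008 and 991 CPM in Arg1-positive cells and 2964, 2013 and 933 CPM in Arg1-zero cells (0.04 ± 0.04, edgeR adjusted p = 0.562). Its level followed the library and was close between the classes within each. Mrc1, the mannose receptor, differed by -0.52 ± 0.30 (edgeR adjusted p = 0.279).

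The higher members were Fn1, Pdcd1lg2, which encodes the PD-1 ligand PD-L2 (1.12 ± 0.22), and Ccl24, an eosinophil chemokine. For Ccl24 (2.30 ± 0.43), 1 cell of WT_CD45 1 held 102 of the 126 UMIs there. The lower members were Clec10a, a C-type lectin (29.6, 17.4 and 4.66 CPM against 73.5, 51.3 and 33.3 CPM, -1.52 ± 0.15), Il13ra1, a chain of the IL-13 receptor (-0.33 ± 0.11), and Ccl17, a chemokine (-0.34 ± 0.10). Among 22 tested regulators and receptors upstream of Arg1, 3 were higher (Tgfbr1, Cebpa and Csf2rb2) and 4 lower (Il13ra1, Spi1, Cebpb and Il10ra), with a median of -0.01. Il4ra, the shared receptor chain for IL-4 and IL-13, differed by 0.04 ± 0.09 and its signal transducer Stat6 by -0.15 ± 0.13, neither past the test.

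Of 18 tested genes of classical activation, 2 were higher (Cd38 and Ccl5) and 8 lower, with a median of -0.30. Cxcl10, an interferon-induced chemokine, had the largest difference among the lower members: 350, 348 and 408 CPM in Arg1-positive cells, against 1100, 1062 and 738 CPM in Arg1-zero cells, without overlap (-1.39 ± 0.09, edgeR adjusted p = 7.33e-13). Gbp2, an interferon-induced GTPase (-0.69 ± 0.06), and Cxcl9, a further interferon-induced chemokine (-0.62 ± 0.07), were lower too. Il1b, which encodes interleukin-1 beta, was lower in edgeR (-0.52 ± 0.08, adjusted p = 1.53e-05) but not in DESeq2 (adjusted p = 0.162), and its values overlapped between the classes.

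**Figure D3:**
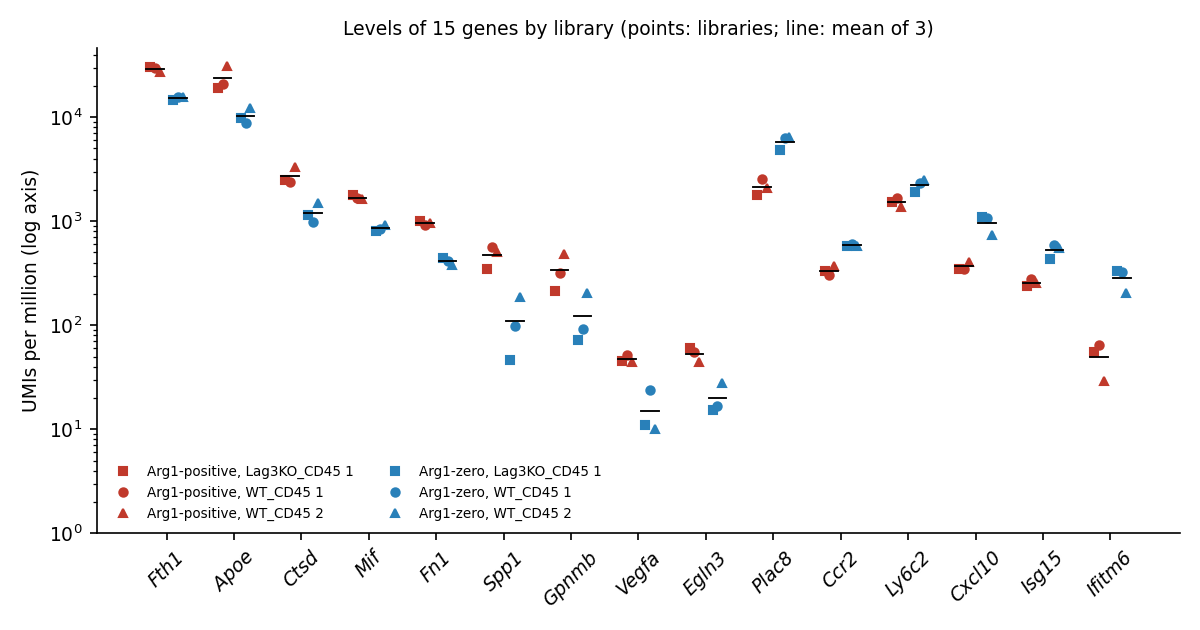
Level of 15 genes (CPM, log axis) in Arg1-positive cells (red, left of each pair) and Arg1-zero cells (blue, right), with 1 point per CD45 library and a line at the mean of the 3. For all 15 the points of the classes do not overlap, and the closest is Gpnmb, with 213 CPM in Arg1-positive cells of Lag3KO_CD45 1, against 203 CPM in Arg1-zero cells of the library labelled WT_CD45 2.

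Lipid handling was the list with the most higher members beside lysosomal genes: of 26 tested, 20 were higher and 1 lower (Pltp), with a median of 0.70. Gpnmb, a glycoprotein of lipid-laden macrophages (chr6:49036546-49070929), stood at 213, 319 and 479 CPM in Arg1-positive cells, against 72, 91.7 and 203 CPM in Arg1-zero cells (1.53 ± 0.08, edgeR adjusted p = 1.33e-14). Fabp5, a fatty acid binding protein, stood at 747, 891 and 967 CPM in Arg1-positive cells, against 246, 197 and 545 CPM in Arg1-zero cells (1.53 ± 0.12). For both genes the library labelled WT_CD45 2 was high in each class, and the classes did not overlap.

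Apoe, the lipid carrier apolipoprotein E, stood at 18869, 20923 and 31094 CPM in Arg1-positive cells, against 9729, 8853 and 12233 CPM in Arg1-zero cells (1.20 ± 0.04, edgeR adjusted p = 4.21e-18). Abca1, the cholesterol exporter, stood at 106, 103 and 92.3 CPM in Arg1-positive cells, against 33.5, 38.6 and 39.7 CPM in Arg1-zero cells (1.46 ± 0.11). Trem2, a lipid-sensing receptor of macrophages and microglia, differed by 1.09 ± 0.06, the tetraspanins Cd9 and Cd63 by 1.14 ± 0.06 and 1.08 ± 0.07, and Plin2, a coat protein of lipid droplets, by 0.62 ± 0.07. Abcg1, the partner exporter of Abca1, differed by 0.14 ± 0.12 (edgeR adjusted p = 0.497).

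Gpnmb was found more often in cells with a Fabp5 UMI than in cells without one. At 4000 UMIs both had a UMI in 26.1%, 27.2% and 36.0% of Arg1-positive cells and in 5.74%, 7.25% and 14.9% of Arg1-zero cells. Among Arg1-positive cells, Gpnmb had a UMI in 54.8%, 58.6% and 63.3% of those with a Fabp5 UMI and in 9.32%, 13.6% and 16.7% of those without one. These are shares of cells within libraries and are given as a description. A Gpnmb UMI was found in 30.9%, 34.5% and 43.2% of all Arg1-positive cells (36.5%, 43.0% and 48.6% at full depth), against 2.03%, 3.27% and 1.67% of T cells.

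Of 25 lysosomal genes, 20 were higher and 1 lower (Cst3, the cathepsin inhibitor cystatin C), with a median of 0.45. Ctsd, the aspartic protease cathepsin D, stood at 2484, 2362 and 3307 CPM in Arg1-positive cells, against 1153, 977 and 1497 CPM in Arg1-zero cells (1.19 ± 0.04, edgeR adjusted p = 1.78e-18). Ctsl differed by 1.01 ± 0.09, Ctsb by 0.70 ± 0.04 and Ctss, a cathepsin of antigen processing, by 0.58 ± 0.03. Lamp1, a lysosomal membrane protein, was higher (0.51 ± 0.06) and Lamp2 was not called (0.11 ± 0.06, edgeR adjusted p = 0.279).

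The list of iron and haem genes counts Fth1, which was named as a marker from these data and adds no support here. Of 18 tested, 7 were higher and 2 lower, with a median of 0.29. Besides Fth1, these were Ftl1, the ferritin light chain (11708, 13015 and 12469 CPM in Arg1-positive cells, against 7713, 8340 and 8662 CPM in Arg1-zero cells, 0.61 ± 0.03), Trf, transferrin (1.00 ± 0.08), Blvrb, biliverdin reductase B (0.45 ± 0.07), Slc48a1, a haem transporter (0.44 ± 0.11), and the metal transporters Slc11a1 (0.39 ± 0.09) and Slc11a2 (0.62 ± 0.21). Lcn2, which binds iron carriers of bacteria, and Cp, ceruloplasmin, were lower (-2.30 ± 0.20 and -1.62 ± 0.56). Hmox1, haem oxygenase 1, did not pass (0.35 ± 0.12, edgeR adjusted p = 0.0505): in Lag3KO_CD45 1 it stood at 155 CPM in Arg1-positive cells, against 71.7 CPM in Arg1-zero cells, and in the other libraries the classes were close, at 135 and 173 CPM against 139 and 174 CPM.

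Of 18 tested genes of the NRF2 oxidative stress response, 6 were higher, among them Prdx6, a peroxiredoxin (0.55 ± 0.06), and 3 lower, among them Gsr, glutathione reductase (-0.61 ± 0.08), with a median of 0.27.

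Of 20 tested glycolysis genes, 14 were higher and 1 lower (Slc2a6, a sugar transporter), with a median of 0.52. Aldoa, an aldolase, stood at 1727, 1872 and 1824 CPM in Arg1-positive cells, against 1062, 1094 and 1152 CPM in Arg1-zero cells (0.73 ± 0.04, edgeR adjusted p = 1.64e-13). Its isoenzyme Aldoc differed by 1.52 ± 0.14, Tpi1, triosephosphate isomerase, by 0.79 ± 0.05, Pfkl, a phosphofructokinase, by 0.80 ± 0.10, and Ldha, which makes lactate, by 0.61 ± 0.05. Pdk1, which holds pyruvate back from mitochondria, differed by 1.01 ± 0.13. The hexokinases Hk1, Hk2 and Hk3 were not called. Reads of Gapdh (0.55 ± 0.05), Eno1 (0.42 ± 0.07) and Pgk1 (0.76 ± 0.24) may be shared with near-identical copies, so these values are uncertain.

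Of 19 tested genes of the hypoxia response, 12 were higher and 0 lower, with a median of 0.58. Vegfa, an angiogenic growth factor, stood at 45.4, 51.7 and 44.8 CPM in Arg1-positive cells, against 11.1, 23.8 and 10.1 CPM in Arg1-zero cells (1.66 ± 0.17, edgeR adjusted p = 1.96e-08). Egln3, an oxygen sensor that hydroxylates hypoxia-inducible factors, stood at 60, 55.3 and 44.8 CPM, against 15.3, 16.6 and 27.9 CPM (1.49 ± 0.16), and Mif, a cytokine induced by hypoxia, at 1778, 1656 and 1628 CPM, against 808, 835 and 927 CPM (1.00 ± 0.05). Bnip3, a mitophagy receptor (0.95 ± 0.09), and Ankrd37, an ankyrin repeat protein (0.68 ± 0.12), were higher too. Hif1a, the oxygen-regulated subunit itself, which is controlled mainly at the protein level, differed by 0.08 ± 0.07 (edgeR adjusted p = 0.493).

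The core of the hypoxia response element, ACGTG, was searched on both strands of the promoter windows of RefSeq on GRCm38.p6, from 250 bases before to 50 after each start. It was found in 15 of 17 hypoxia genes with a window (88.2%), in 10 of the 11 called higher, and in 13 of 20 glycolysis genes (65.0%). Of all 27025 genes with a window it was found in 21.8%, of the 7165 tested in 30.9%, and of all genes higher in Arg1-positive cells in 32.2%. A match is a description of these letters and not a binding site. The 250 bases before the start of 3 called genes are printed here, 5′ to 3′ in the direction of the gene, with matches in capitals: Egln3 (chr12:54203875-54204124, minus strand) has 1 match, 229 bases before the start, Bnip3 (chr7:138909507-138909756, minus strand) has 2 overlapping ones on opposite strands, 108 and 107 bases before it, and Ankrd37 (chr8:45999851-46000100, minus strand) has 2, 241 and 6 bases before it.
Egln3: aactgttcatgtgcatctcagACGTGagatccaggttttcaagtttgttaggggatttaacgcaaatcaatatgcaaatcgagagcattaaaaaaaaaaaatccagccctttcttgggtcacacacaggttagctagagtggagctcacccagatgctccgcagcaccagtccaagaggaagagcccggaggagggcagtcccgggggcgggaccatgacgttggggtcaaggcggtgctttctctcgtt
Bnip3: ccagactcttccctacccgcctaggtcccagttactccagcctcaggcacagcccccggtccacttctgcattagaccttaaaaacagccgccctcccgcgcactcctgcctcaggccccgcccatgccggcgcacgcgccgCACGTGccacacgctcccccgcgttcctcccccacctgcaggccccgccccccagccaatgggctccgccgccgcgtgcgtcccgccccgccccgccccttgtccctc
Ankrd37: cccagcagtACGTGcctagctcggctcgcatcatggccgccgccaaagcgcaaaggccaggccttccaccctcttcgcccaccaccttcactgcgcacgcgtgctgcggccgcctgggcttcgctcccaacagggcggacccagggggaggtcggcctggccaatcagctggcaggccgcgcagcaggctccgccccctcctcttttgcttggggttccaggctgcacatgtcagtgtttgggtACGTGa

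**Figure D4:**
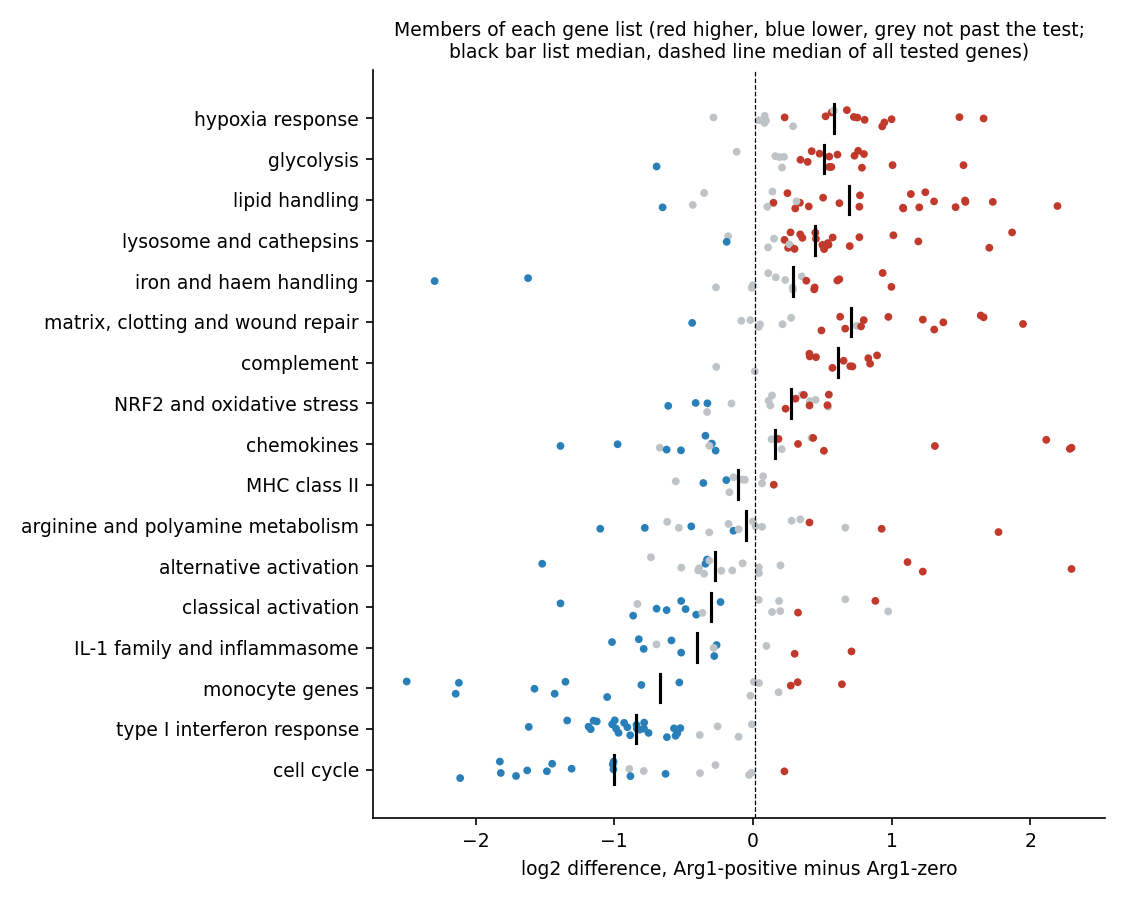
Log2 difference (Arg1-positive minus Arg1-zero, horizontal axis) of each tested member of 17 gene lists (1 row each), red where edgeR called it higher, blue where lower and grey where not called, with a black bar at the list median and a dashed line at the median of all genes (0.01). Most lipid, lysosome, glycolysis and hypoxia genes lie right of 0, and all 29 type I interferon genes lie left of it.

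Of 20 tested genes of matrix, clotting and wound repair, 12 were higher and 1 lower (Tgfb1), with a median of 0.71. F7, coagulation factor VII, stood at 47.6, 50.1 and 47.6 CPM in Arg1-positive cells, against 12.1, 13.7 and 12.1 CPM in Arg1-zero cells, with the libraries nearly alike (1.95 ± 0.15, edgeR adjusted p = 7.45e-11). Mmp12, the macrophage elastase, differed by 1.37 ± 0.15, Pdgfa, a growth factor, by 0.98 ± 0.14, and Tgfbi, a matrix protein induced by TGF-beta, by 0.49 ± 0.04. Thbs1, thrombospondin 1, was not called (0.05 ± 0.09).

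Of 12 tested complement genes, 10 were higher and 0 lower, with a median of 0.61. The C1q chains C1qa, C1qb and C1qc differed by 0.72 ± 0.06, 0.83 ± 0.05 and 0.85 ± 0.06, and the receptors C3ar1 and C5ar1 by 0.90 ± 0.09 and 0.70 ± 0.10. C1qa stood at 1875, 1532 and 2398 CPM in Arg1-positive cells, against 1381, 927 and 1251 CPM in Arg1-zero cells. At 4000 UMIs, C1qa had a UMI in 76.5%, 72.5% and 79.9% of Arg1-positive cells, 53.3%, 47.9% and 55.9% of Arg1-zero cells and 55.8%, 43.8% and 46.1% of T cells (76.9%, 78.7% and 86.1% of Arg1-positive cells at full depth). The share of Arg1-zero cells with a UMI was close to that of T cells, which should lack the gene, so no C1qa-expressing share of Arg1-zero cells can be read from it.

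All 29 tested genes of the type I interferon response had negative differences, and 25 of them were lower in Arg1-positive cells, with a median of -0.84. Isg15, a ubiquitin-like protein induced by interferon, stood at 240, 277 and 252 CPM in Arg1-positive cells, against 431, 588 and 551 CPM in Arg1-zero cells, without overlap (-1.0 ± 0.06, edgeR adjusted p = 5.29e-13). Ifit1, which binds viral RNA, stood at 43.5, 56.1 and 54.1 CPM, against 73.8, 121 and 129 CPM (-1.01 ± 0.10). Cmpk2, a mitochondrial kinase (-1.62 ± 0.19), Oas3, an RNA sensor (-1.34 ± 0.14), Ifitm3, a restriction factor (-0.88 ± 0.04), and Irf7, a transcription factor (-0.56 ± 0.07), were lower, and 4 members, among them Stat2, Bst2 and Oas2, were not called.

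The core of the interferon-stimulated response element, a pair of GAAA with any 2 bases between them, chosen after these values were seen, was found on either strand in the windows of 13 of 22 interferon genes (59.1%), 11 of the 20 called lower. Of all genes with a window it was found in 3.99%, and of those lower in Arg1-positive cells in 10.5%. Isg15 (chr4:156200819-156201068, minus strand) has 3 overlapping matches, 78, 72 and 66 bases before the start, and Ifit1 (chr19:34640639-34640888, plus strand) has 2 on the opposite strand, 104 and 85 bases before it. Both are shown over 250 bases with matches in capitals.
Isg15: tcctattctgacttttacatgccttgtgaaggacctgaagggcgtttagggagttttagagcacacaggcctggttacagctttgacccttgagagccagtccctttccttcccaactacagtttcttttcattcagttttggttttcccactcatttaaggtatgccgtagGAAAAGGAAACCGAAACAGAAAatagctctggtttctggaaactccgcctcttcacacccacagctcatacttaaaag
Ifit1: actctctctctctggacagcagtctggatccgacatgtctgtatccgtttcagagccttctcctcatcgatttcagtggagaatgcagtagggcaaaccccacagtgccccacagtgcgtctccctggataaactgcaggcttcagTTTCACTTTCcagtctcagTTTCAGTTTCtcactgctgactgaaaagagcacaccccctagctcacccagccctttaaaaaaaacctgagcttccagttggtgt

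Monocyte genes were mostly lower, though not as a whole. Of 16 tested, 9 were lower and 3 higher (among them Maf and Csf1r, which macrophages also express), with a median of -0.67. By sign alone, 10 differences were negative and 6 positive. Chil3, also a gene of monocytes, was close between the classes, as given above. Ifitm6, a small membrane protein of monocytes, had the largest negative difference of all named genes, at 55.5, 64.2 and 28.9 CPM in Arg1-positive cells, against 331, 326 and 203 CPM in Arg1-zero cells (-2.50 ± 0.09, edgeR adjusted p = 1.43e-18). Plac8, a protein of blood monocytes, stood at 1794, 2527 and 2067 CPM in Arg1-positive cells, against 4782, 6282 and 6386 CPM in Arg1-zero cells (-1.43 ± 0.04). For both genes no value of one class reached the other.

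Vcan, the proteoglycan versican (-2.14 ± 0.18), Ms4a4c (-1.35 ± 0.06), Nr4a1, a nuclear receptor of patrolling monocytes (-1.05 ± 0.13), and Ccr2, the receptor for Ccl2 (333, 301 and 371 CPM against 580, 600 and 581 CPM, -0.80 ± 0.06), were lower. Ly6c2, the surface marker of inflammatory monocytes, was lower by a smaller step, with 1518, 1664 and 1373 CPM in Arg1-positive cells, against 1926, 2307 and 2481 CPM in Arg1-zero cells (-0.53 ± 0.06). At 4000 UMIs a Ly6c2 UMI was found in 85.7%, 82.9% and 82.7% of Arg1-positive cells and 83.1%, 88.9% and 80.2% of Arg1-zero cells, against 34.0%, 41.8% and 32.2% of T cells (89.5%, 90.7% and 88.2% of Arg1-positive cells at full depth). Cx3cr1, a receptor of resident macrophages and patrolling monocytes, was not called (0.19 ± 0.08, edgeR adjusted p = 0.147).

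Other named genes with negative differences were S100a4, a calcium-binding protein (-1.53 ± 0.07), Cd209a, a lectin of monocyte-derived dendritic cells (-2.12 ± 0.15), Gm9733 (-1.89 ± 0.11), Tppp3, a tubulin-binding protein (-1.49 ± 0.14), and the cell cycle genes Cdkn2d, an inhibitor (-1.44 ± 0.13), and Stmn1, a regulator of microtubules (-1.63 ± 0.14). Cd209a overlapped between the classes, since the library labelled WT_CD45 2 had 21.1 CPM in Arg1-zero cells and WT_CD45 1 had 22.6 CPM in Arg1-positive cells. Of 20 cell cycle genes, 13 were lower and 1 higher (Tubb5), with a median of -1.01. With cells thinned to 4000 UMIs, 4 of 16 tested were lower and the median was -0.60. Most are rare: Mki67, a proliferation marker, stood at 4.12, 6.06 and 4.66 CPM in Arg1-positive cells, against 4.64, 15.5 and 11.6 CPM in Arg1-zero cells (-1.01 ± 0.30). DESeq2 called 7 cell cycle genes lower.

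Chemokine genes moved in both directions: of 20, 8 were higher and 7 lower in edgeR (3 and 2 in DESeq2), with a median of 0.16. Cxcl14, a chemokine of tissues, stood at 42.0, 31.9 and 64.3 CPM in Arg1-positive cells, against 3.92, 10.1 and 14.9 CPM in Arg1-zero cells (2.29 ± 0.20, edgeR adjusted p = 7.54e-10). Cxcl16, a ligand of CXCR6, was higher as well (0.43 ± 0.05). Ccl2, the monocyte attractant, was lower (-0.98 ± 0.14) but overlapped, because in the library labelled WT_CD45 2 it stood at 214 CPM in Arg1-positive cells, against 207 CPM in Arg1-zero cells. DESeq2 did not call it (adjusted p = 0.362).

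Genes through which macrophages meet T cells moved in both directions. Of 10 MHC class II genes, 1 was higher (Cd74, the invariant chain, 0.15 ± 0.03) and 2 lower (H2-DMb1 and H2-DMb2, peptide editors) in edgeR, with a median of -0.11. DESeq2 called 0 of the 10 in either direction. H2-Aa, an MHC class II chain, stood at 6833, 7024 and 6690 CPM in Arg1-positive cells and 6838, 6387 and 6658 CPM in Arg1-zero cells (0.07 ± 0.03, edgeR adjusted p = 0.210). Of 16 tested ligands and enzymes that regulate T cells, 4 were higher and 5 lower in edgeR (1 and 3 in DESeq2), with a median of -0.10. Higher were Nt5e, the adenosine-making enzyme CD73 (1.88 ± 0.34), Pdcd1lg2, Cd274, which encodes PD-L1 (0.42 ± 0.10), and Lgals3, galectin-3 (0.31 ± 0.04), a ligand of LAG3. Lower were Fgl2, a secreted inhibitor of T cells (-0.82 ± 0.08), the co-stimulators Cd40 (-0.86 ± 0.10) and Cd86 (-0.23 ± 0.08), Lgals9 (-0.36 ± 0.09) and Tgfb1 (-0.44 ± 0.06). Of 12 genes of the IL-1 family and inflammasome, 2 were higher and 7 lower in edgeR (0 and 3 in DESeq2), with a median of -0.40.

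**Figure D5:**
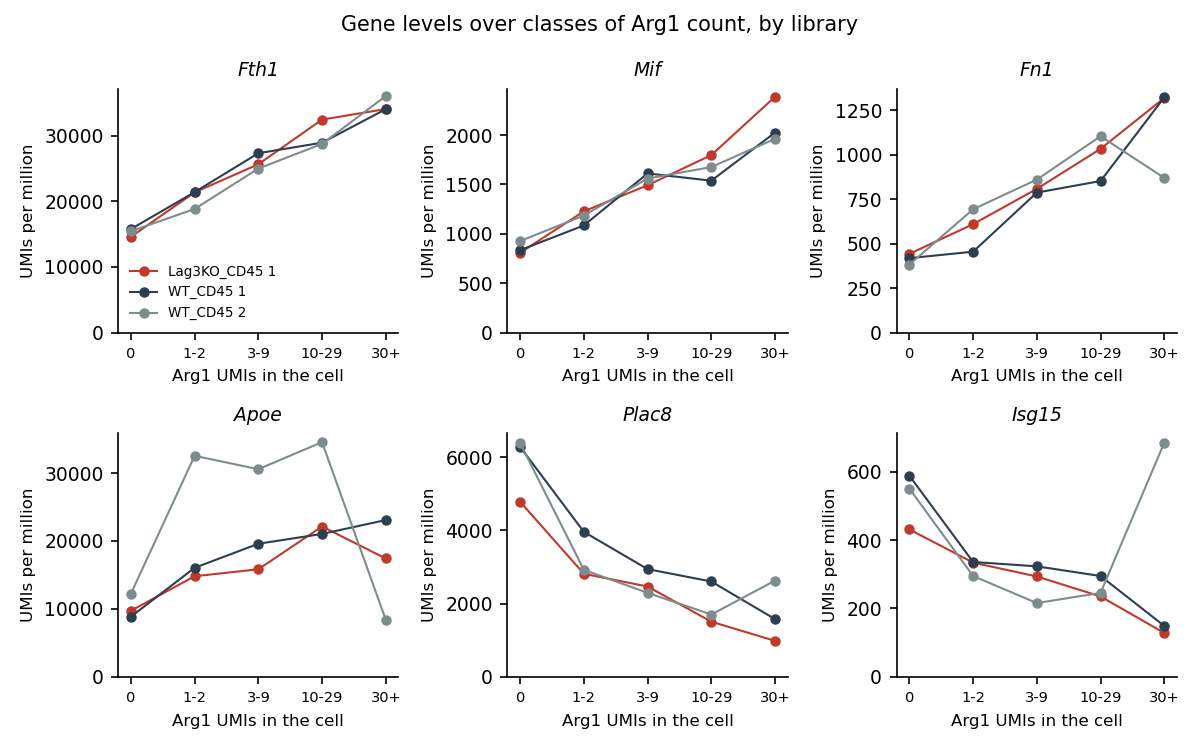
Level (CPM, axis from 0) of Fth1, Mif, Fn1, Apoe, Plac8 and Isg15 in Lyz2 cells binned by their Arg1 UMIs (0, 1 to 2, 3 to 9, 10 to 29, 30 or more), 1 line per CD45 library, with all UMIs counted. Fth1 is higher in each further bin of all 3 libraries, Plac8 is lower in each except the last bin of the library labelled WT_CD45 2, and that bin holds 6 cells.

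The levels of Fth1 and Plac8 differed by the number of Arg1 UMIs in a cell. Over the bins of 0, 1 to 2, 3 to 9, 10 to 29 and at least 30 Arg1 UMIs, Fth1 stood at 14593, 21371, 25654, 32459 and 34072 CPM in Lag3KO_CD45 1, at 15779, 21407, 27336, 28942 and 34048 CPM in WT_CD45 1, and at 15444, 18842, 24999, 28756 and 36053 CPM in the library labelled WT_CD45 2. Plac8 stood at 4782, 2816, 2468, 1507 and 982 CPM in Lag3KO_CD45 1, at 6282, 3961, 2943, 2605 and 1578 CPM in WT_CD45 1, and at 6386, 2922, 2295, 1703 and 2628 CPM in the library labelled WT_CD45 2. With all UMIs counted, each library was ordered over the bins for Fth1, and for Plac8 only the last bin of the library labelled WT_CD45 2, with 6 cells, broke the order; the order held there up to 1703 CPM without it. Median depth rose over the same bins, from 4877 to 7049 UMIs in Lag3KO_CD45 1, from 5534.5 to 8516 in WT_CD45 1 and from 5397 to 7942 in the library labelled WT_CD45 2. With every cell thinned to 4000 UMIs and binned again, Fth1 stood at 15336, 23580, 27921, 35817 and 28750 CPM in Lag3KO_CD45 1, at 16269, 22457, 28658, 34577 and 39583 CPM in WT_CD45 1, and at 15494, 21110, 27690, 28982 and 46500 CPM in the library labelled WT_CD45 2. At this equal depth Fth1 was ordered in all 3 libraries over the bins up to 29 Arg1 UMIs, and the last bin, with 13, 9 and 2 cells, broke the order in Lag3KO_CD45 1. Plac8 at equal depth was ordered in each library over the bins up to 9 Arg1 UMIs and lost the order after that in all 3. Ly6c2 and C1qa did not follow the bins in order in any of the 3 libraries.

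The few Lyz2 cells of the 4 CD4 libraries gave values outside the libraries that defined the cells; with at least 20 cells of both classes in Lag3KO_CD4 1 alone, they were not tested. Fth1 stood at 39281 and 26009 CPM in Arg1-positive cells of Lag3KO_CD4 1 and 2 and 39150 and 12295 CPM in those of WT_CD4 1 and 2, against 13563, 8522, 12448 and 9029 CPM in the Arg1-zero cells of the same libraries. Arg1-positive cells were higher in 4 of 4 libraries for Fth1, Fabp5, Slc7a2, Egln3, Abca1, Fn1, Ctsd, Aldoa and Mif, and lower in 4 of 4 for Ifitm6, Vcan and S100a4. Some of these rest on few UMIs. Over the 4 libraries, Arg1-positive and Arg1-zero cells held 26 and 6 UMIs of Slc7a2 and 18 and 7 of Egln3. They held 22 and 11 of Abca1 and 5 and 41 of Vcan, beside 11186 and 5693 of Fth1. With the cells of these libraries summed, 360 of 436 genes called higher (82.6%) and 596 of 697 called lower (85.5%) with at least 20 UMIs had the same sign, as had 57.9% of genes not called. Apoe, Trem2, C1qb and C1qc were higher in 2 of 4 libraries only, C1qa in 1 and Spp1 in 3. Of the other named genes, Tmem37 was higher in 1 and lower in 3, Gpnmb was higher in 2, lower in 1 and at 0 in both classes of 1, and Syngr1, Acp5 and Sash1 were higher in 3. Of those lower in the CD45 libraries, Stmn1 was lower in 3 and Cd209a in 1, with 0 in both classes of the others. Tppp3 was lower in 2 and higher in 2.

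By genotype, few genes were called within Arg1-positive cells, and many of those had the names of ribosomal protein genes or of gene models. In simulated data with known changes, this edgeR test found 3.03% of 1.5-fold, 33.9% of 2-fold and 77.3% of 4-fold changes. Real differences may therefore go uncalled. In edgeR 45 of 9282 tested genes (0.485%) differed between Lag3KO_CD45 1 and the 2 WT libraries, 8 higher (0.0862%) and 37 lower (0.399%) in Lag3KO, with 440 at an unadjusted p under 0.05; DESeq2 called 0 (0%), with 39 at an unadjusted p under 0.05. The spread comes from the WT libraries alone. Of the 37 lower, 24 were ribosomal protein genes or gene models named Gm, Rpl or Rps, with Fau and Wdr89, many of them near-identical copies among which reads may be split, so they are uncertain. In 42 of the 45 the Lag3KO value lay outside both WT values. The same libraries gave the calls, so this count adds no support, and the share over all tested genes was not computed. Without doublet-like cells 4 remained called: Hspa1a, Gzma, Ptgds and Gm17430.

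Chil3 stood at 2973 CPM in Lag3KO_CD45 1, against 2008 CPM in WT_CD45 1 and 991 CPM in the library labelled WT_CD45 2 (0.95 ± 0.16, edgeR adjusted p = 3.97e-05). As a ratio of levels its log2 difference was 0.57 without the library labelled WT_CD45 2 and 1.58 without WT_CD45 1. Hspa1a, an inducible heat shock protein, stood at 13.5 CPM in Lag3KO_CD45 1, against 93.7 CPM in WT_CD45 1 and 32.6 CPM in the library labelled WT_CD45 2 (-2.38 ± 0.29, edgeR adjusted p = 3.00e-10). Its log2 ratio was -2.80 without the library labelled WT_CD45 2 and -1.27 without WT_CD45 1.

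Gpnmb stood at 213 CPM in Lag3KO_CD45 1, against 319 CPM in WT_CD45 1 and 479 CPM in the library labelled WT_CD45 2 (-0.92 ± 0.19, edgeR adjusted p = 0.00170). It was the 1 gene named for the Arg1 comparison that was also called by genotype, with log2 ratios of -0.58 without the library labelled WT_CD45 2 and -1.17 without WT_CD45 1, and it was not called without doublet-like cells. The other genes named by the rule were Sparc, a matrix protein also made by microglia (1.10 ± 0.23), Ccl17 (0.97 ± 0.21), Bcl3, a regulator of NF-kappa B (0.94 ± 0.23), Gm26917 (0.89 ± 0.21) and AY036118 (0.77 ± 0.20), higher in Lag3KO, and 9 gene models or ribosomal protein genes, lower. Without the library labelled WT_CD45 2 the log2 ratios of the 5 higher genes were 1.60 for Sparc, 0.59 for Ccl17, 0.80 for Bcl3, 1.04 for Gm26917 and 1.09 for AY036118. Without WT_CD45 1 they were 0.59 for Sparc, 1.95 for Ccl17, 1.34 for Bcl3, 0.76 for Gm26917 and 0.48 for AY036118. The 9 lower genes ranged from -1.57 (Rpl35) to -0.84 (Rps26-ps1) without the library labelled WT_CD45 2 and from -1.29 (Gm17430) to -0.05 (Rpl35) without WT_CD45 1. Single cells held much of some genes: 1 cell of Lag3KO_CD45 1 held 117 of 346 Ccl17 UMIs and 1 held 31 of 40 Ptgds UMIs, and 1 cell of WT_CD45 1 held 96 of 106 Ccl8 UMIs. The NK cell markers summed to 81.7 CPM in Lag3KO_CD45 1, against 39.2 and 26.1 CPM in WT_CD45 1 and the library labelled WT_CD45 2, and the part of NK cells in the Gzma call (2.41 ± 0.35, with log2 ratios of 2.28 without the library labelled WT_CD45 2 and 2.92 without WT_CD45 1) was not tested.

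Most lists held no gene called by genotype, but only 0.485% of all tested genes were called, so 0 calls in a list says little. The chemokine and alternative activation lists did hold calls. Of 19 hypoxia, 20 glycolysis, 25 lysosomal and 29 interferon genes tested, 0 were called by genotype in edgeR, with medians of 0.11, -0.01, -0.01 and -0.18. Of 26 lipid genes 2 were lower, Gpnmb and Fabp4, with a median of -0.15. Fth1 differed by 0.06 ± 0.13, Fn1 by 0.05 ± 0.17, Spp1 by -0.66 ± 0.18 and Apoe by -0.49 ± 0.14 (edgeR adjusted p of 0.999, 0.999, 0.0582 and 0.0640). Without the library labelled WT_CD45 2 the log2 ratios were -0.71 for Spp1, -0.15 for Apoe and -1.76 for Fabp4, and without WT_CD45 1 they were -0.54 for Spp1, -0.72 for Apoe and -3.12 for Fabp4.

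Whether a genotype difference depended on the class changed with the filter and the tool. The interaction of genotype and class was called for 0 of 9833 genes (0%) in edgeR, with 407 at an unadjusted p under 0.05, and for 0 in DESeq2, with 12. Wfdc21, of the whey acidic protein family, had the smallest p (2.65 ± 0.34), and Hmox1 followed with a difference of differences of 1.12 ± 0.16 (edgeR adjusted p = 0.139), and Fth1 (0.17 ± 0.05), Spp1 (0.91 ± 0.37) and Gpnmb (0.05 ± 0.21) were not called either. Hmox1 and Spp1 were called in edgeR with no filter (adjusted p = 8.50e-07 and 0.000116), at 10 or more Arg1 UMIs (adjusted p = 0.000461 and 0.000178) and without doublet-like cells (adjusted p = 1.22e-05 and 0.0406), with log2 values of 1.03 to 1.15 for Hmox1 and 0.89 to 0.99 for Spp1. DESeq2 gave an adjusted p of 1.00 for both. With 1 Lag3KO library the spread rests on 1 residual degree of freedom. In simulated data the edgeR interaction test found 0% of 1.5-fold, 7.58% of 2-fold and 42.2% of 4-fold changes.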

How the data were processed

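The authors deposited UMI counts per gene and barcode; per the submitters' processing notes Cell Ranger, Seurat and GRCm38 (mm10) were used, and per the file headers of the CD4 libraries Cell Ranger was version 3.0.2. For the CD45 libraries its version is not given in the sources used here. Libraries were made with the 10x 3′ v2 kit, so a count measures 3′ tags.

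Barcodes with at least 200 genes and at most 10% mitochondrial UMIs were kept, and the rule that opens the report was applied to raw counts. Members and gene lists were chosen with earlier results of these data known. Counts were summed per library and class and tested with edgeR (quasi-likelihood, TMM, filterByExpr, two-sided, Benjamini-Hochberg at 0.05), with the library as a block between classes; each class pair comes from the same library, which is where the pairing comes from. DESeq2 was the other tool. The genes of the rule entered the fits and were never counted as calls. Values after ± are SE of log2 differences unless SD is stated.

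Named genes were those called with the same sign in every library (or, by genotype, no overlap) and a mean of at least 50 CPM in the higher class, the 15 highest and 10 lowest by log2 difference; list members may be named besides, and other genes named by genotype (Ptgds, Gzma, Ccl8, Fabp4) were chosen after their values were seen. Some genes are not reported here. Doublet-like cells (4, 4 and 2 Arg1-positive cells), most like simulated doublets at 0.8% per 1000 barcodes, were kept and left out as an alternative. Cells under 4000 UMIs were left out of thinned shares. These were 44, 4 and 5 Arg1-positive cells, 124, 68 and 94 Arg1-zero cells, and 195, 170 and 278 T cells. Scripts were tested on simulated data. Software was DESeq2 1.42.0, edgeR 4.0.16 and limma 3.58.1 in R 4.3.3, with scanpy 1.11.5 and scipy 1.17.1 in Python 3.11.15. 2 planned tests were not run, against Arg1-zero cells with Nos2 and within the CD4 libraries, because fewer than 2 libraries held 20 cells of both classes.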

Additional observations from a re-analysis of the deposited data

Results flagged for a closer look

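Lyz2 barcodes with at least 3 Arg1 UMIs that were left out for more than 1 Cd3 UMI stand outside the comparisons and hold Arg1 signal that no comparison used. They numbered 253 (Lag3KO_CD45 1), 182 (WT_CD45 1) and 116 (the library labelled WT_CD45 2), beside 351, 291 and 144 Arg1-positive cells. Their makeup was not tested.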

How the results depend on the processing

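Between Arg1-positive and Arg1-zero cells, 1613 genes were called, 542 with DESeq2 and 997 with cells thinned to 4000 UMIs; with no replicate block, 669 were called. Leaving out 1 library gave 1085 to 1434. The other settings gave 1220 to 1639, and counting Arg1 at 4000 UMIs, chosen after seeing the data, gave 1331. Of the called genes tested under each setting, 8 had the opposite sign with thinned cells, 2 with Arg1 counted at 4000 UMIs and 0 otherwise. Il1rn, the IL-1 receptor antagonist (-0.26), stood at 0.039 with thinned cells and 0.010 with Arg1 counted at 4000 UMIs; the cause was not tested. Over 14 settings and 238 named or listed genes, 2961 values kept direction and call and 335 kept direction only. By list, the hypoxia genes called higher ranged from 8 to 13, lipid genes from 13 to 20 interferon genes called lower from 21 to 26 and cell cycle genes called lower from 4 to 16.

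By genotype, 45 genes were called, 0 with DESeq2, 18 with at least 10 Arg1 UMIs and 4 without doublet-like cells. The interaction gave 0 genes, 20 with no filter, 21 with at least 10 Arg1 UMIs and 18 without doublet-like cells. No paired analysis by genotype was possible, because no label pairs a WT library with the Lag3KO library. The difference in shares was 3.62 to 19.6 points when a WT library was left out, and 8.57 to 12.1 over the other settings on Lyz2 cells. Depth limits rare genes, and 1 Lag3KO library limits every genotype result.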

Other observations

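Genes of both arginine enzymes were found in single cells. At full depth, at least 2 Nos2 UMIs were found in 18 of 351 Arg1-positive cells of Lag3KO_CD45 1, 22 of 291 of WT_CD45 1 and 6 of 144 of the library labelled WT_CD45 2, against 7 of 490, 19 of 454 and 2 of 584 Arg1-zero cells. Arg1-positive cells were the deeper class, so these counts do not compare the classes at equal depth. The part of doublets in them was not tested. At 4000 UMIs, Spp1 and Nos2 had a UMI together in 1.63%, 3.14% and 2.16% of Arg1-positive cells.

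The AP-1 motif TGANTCA was found in the windows of 8.57% of genes higher and 9.05% of genes lower in Arg1-positive cells. It was found in 6.18% of the genes tested and in 8.97% of all genes. The antioxidant response core TGACNNNGC was found in 8 of 16 genes of the NRF2 list, 1 of the 5 called higher. It was found in 17.2% of the genes tested and in 14% of all genes.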
